A study of Mus musculus with 16 samples.

Results

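The day 3-only transcripts are stretches of nuclear RNA that were listed in differentiating mouse embryonic stem (ES) cells and had no counterpart in the list of undifferentiated cells. They were chosen by rule from the values of the RNA-seq lists: a row of the day 3 list entered when it was at least 300 bp long, carried a single transcript identifier, had an FPKM of at least 1 and shared no base on its strand with any row of the day 0 list. FPKM is the number of fragments per kilobase of transcript, scaled to the number of mapped fragments of the library. The rule found 2347 transcripts among the 15118 rows of the day 3 list that met the minimums of length, identifier and FPKM, and among 28680 rows in all. The other 12771 of the 15118 overlapped a day 0 row on the same strand. By the reverse rule, 9572 transcripts were listed at day 0 only, from a longer list of 40674 rows in all. The number of day 0 rows that met the minimums is not given here, so 9572 and 2347 are not compared.

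The study mapped RNA contacts and chromosomal sites of CTCF in female mouse ES cells, with a title that points to the X chromosome. Day 0 cells were undifferentiated and grew attached, with LIF; day 3 cells had spent 3 days in suspension with LIF withdrawn. Nuclear RNA-seq, depleted of ribosomal RNA and strand-specific, had 1 library a day. CLIP with UV irradiation and anti-Flag M2 beads had 2 libraries a day, while ChIP with a CTCF antibody covered day 0 with 2 libraries and day 3 with 1. The assays were labelled with different crosses: ChIP with 129S1/CastEiJ x 129S1, the others with CAST/Ei x 129/Sv/Jae. The cells that carry the Flag tag are not described in the labels, and nothing there says that replicates came from separate cultures. The controls of both assays, CLIP without UV and ChIP input, were not analysed here, and the values carry no background from them.

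CTCF recognises DNA through its zinc fingers, marks insulators and the borders of chromatin domains, and also contacts RNA. CLIP recovers RNA that UV light has joined to a protein, and a CLIP peak is a short stretch where such RNA piled up. ChIP recovers the bound DNA. LIF holds mouse ES cells in the undifferentiated state, and its withdrawal starts differentiation; in female cells it also starts the silencing of an X chromosome. Nuclear RNA contains introns, antisense RNA and unstable products of enhancers and promoters along with pre-mRNA. An assembler joins reads into transcripts only where coverage is continuous, so 1 gene can appear as several rows. The files pair the identifiers with no gene names, so each transcript is given by its mm9 position, and the labelled cell type was not checked against marker genes.

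Most day 3-only transcripts were short. Their median length was 500 bp (interquartile range 392.5 to 708), against 734 bp for the day 3 transcripts that overlapped a day 0 row and 509 bp for those listed at day 0 only. In all, 1173 were shorter than 500 bp, 879 ran from 500 to under 1000 bp, 194 from 1000 to under 5000 bp, and 101 were 5000 bp or longer. The median FPKM at day 3 was 10.92 (interquartile range 6.835 to 15.73), beside 10.95 for the overlapping transcripts. The day 0-only transcripts had a median FPKM of 5.945 in the day 0 library. FPKM fell with length: the medians were 12.28, 9.94, 6.135 and 2.35 from the shortest to the longest class. The overlapping transcripts were higher in each class, with medians of 14.55, 12.04, 8.84 and 3.51, so the near-equal medians over all lengths are not matched in length. Spearman's rho of length with FPKM was -0.37 across the 2347 transcripts and -0.45 across the 12771 others. Length and FPKM are linked by their definition, and all points share 1 library. An FPKM of 50 or more was listed for 17 transcripts. Because the rule used length, FPKM and the day of listing, and each day had 1 RNA-seq library, these are descriptions without a test. Fewer cells with an RNA and less of it per cell cannot be told apart in these bulk samples, and a transcript missing from the day 0 list has no level there.

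**Figure D1:**
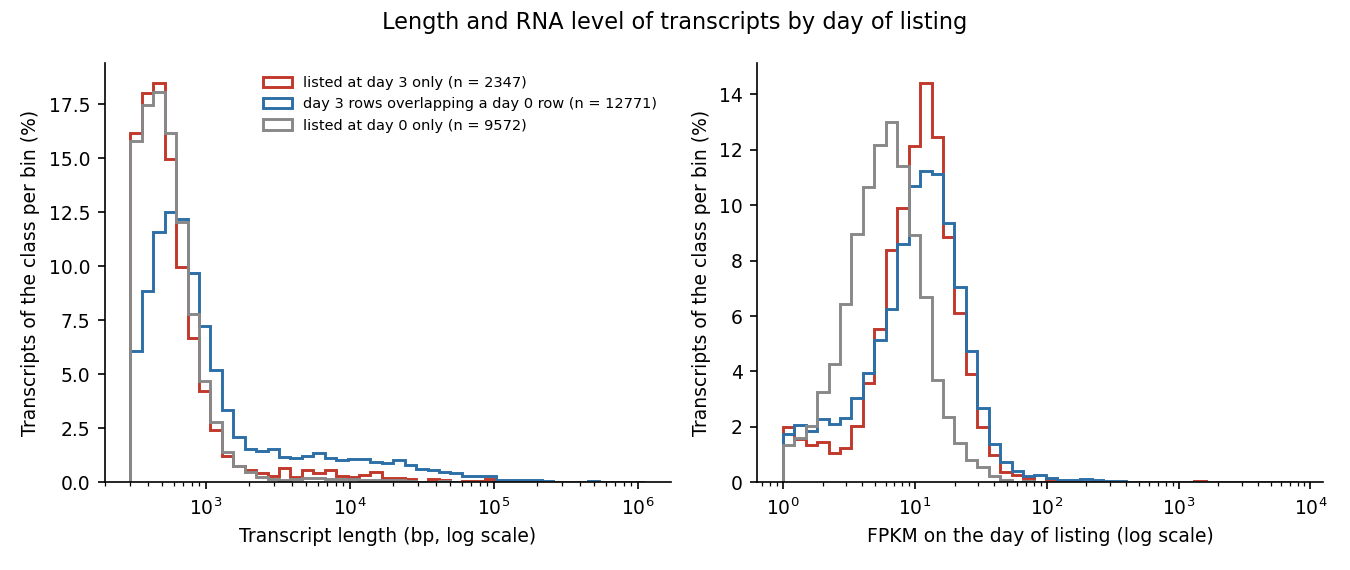
Share of transcripts per bin (%) by length (bp, log scale, left) and by FPKM on the day of listing (log scale, right) for 2347 transcripts listed at day 3 only, 12771 day 3 transcripts overlapping a day 0 row and 9572 listed at day 0 only. The day 3-only lengths follow those of the day 0-only class (medians of 500 and 509 bp). Their median FPKM over all lengths is near that of the other day 3 transcripts (10.92 and 10.95), but it is lower within each length class.

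The minimums cut through a continuous range. The members with the lowest FPKM stood at 1, 1.01 and 1.01, and the nearest transcripts outside stood at 0.98. The shortest members were 300 bp long and the nearest ones outside 299 bp. Of 4167 day 3 rows with no same-strand day 0 overlap, 1155 were too short, 583 were long enough but under the FPKM minimum, and 82 pooled several identifiers.

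The highest FPKM among them, 1333.1, belonged to a transcript of 1257 bp on the plus strand of chromosome 17 (chr17:95154608-95155864), which held no CLIP peak in any library. Next came a 21934 bp transcript on the plus strand of chromosome 7 (chr7:3453349-3475282) at 157.82. It was the highest of the 101 transcripts of 5000 bp or more, with 1 and 6 CLIP peaks in the day 0 libraries; the day 3 libraries had 3 and 2. An 1136 bp transcript on chromosome 11 (chr11:3093024-3094159, plus strand) stood at 116.84, a 619 bp transcript on chromosome 9 (chr9:3024048-3024666, minus strand) at 106.25 and a 306 bp transcript on chromosome 10 (chr10:79727768-79728073, minus strand) at 98.98. The last lay wholly inside a day 0 row on the other strand with an FPKM of 149.864. Of the 15 transcripts with the highest FPKM, 11 were under 1 kb, 7 faced a day 0 row on the other strand and 2 held a CLIP peak. The treatment of reads with several alignments is not stated.

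The distance from day 3-only transcripts to RNA already listed at day 0 varied widely. The day 0 list held 40674 rows, and distances were not measured for other classes or positions, so closeness is not read as a trait of the members. The nearest day 0 row on the same strand was a median of 7330 bp away (interquartile range 1180 to 35368.5). It was within 1 kb for 545 (23.2%), within 5 kb for 1039 (44.3%) and more than 100 kb away for 213 (9.08%). A day 0 row ended or began within 5 kb on both sides of 323 (13.8%). On the other strand, 1202 (51.2%) overlapped a day 0 row, against 68.0% of the overlapping day 3 transcripts, and 676 (28.8%) lay wholly inside such a row, against 29.9%. A start within 1000 bp of a day 0 start in head-to-head orientation, the arrangement of a divergent promoter, was found for 106 (4.52%), against 5.21% of the overlapping transcripts.

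Members that adjoined each other were joined to count places in the genome. Joining those within 5000 bp on a strand gave 2207 loci, of which 2097 held 1 transcript, 90 held 2 and 20 held 3 or more. The largest loci held 6 each: chr1:138665940-138680113 on the plus strand, with FPKM values from 4.74 to 32.99, and chr6:31030738-31041766 on the minus strand, with values from 4.01 to 8.83. Both had a smaller neighbour on the same strand, with 4 transcripts at chr1:138623950-138629447 and 4 at chr6:31108629-31114760. The chromosome 6 loci lay beside a plus-strand member of 116981 bp at chr6:31170405-31287385, with an FPKM of 2.35. A further locus of 5 lay at chr4:142889825-142897915 on the plus strand, with values from 10.29 to 42.25. In all, 94 transcripts overlapped a member on the other strand.

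They were spread over every chromosome used, 1 to 19 and X. The share of a chromosome's day 3 transcripts, under the same minimums, that were listed at day 3 only ran from 13.1% on chromosome 16 (exact 95% interval 10.0 to 16.8) to 19.1% on chromosome 18 (15.4 to 23.2). The intervals here and below are Clopper-Pearson and cover counting error only. On X, 70 of the transcripts were members, a share of 15.2% (12.0 to 18.8).

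CTCF CLIP peaks lay in few of these transcripts, and about as often in day 0 cells, where the RNA was not listed, as in day 3 cells. A same-strand peak was found in 133 of 2347 (5.67%, 95% interval 4.77 to 6.68) in day 0 replicate 1, and in 203 (8.65%, 7.54 to 9.86) in day 0 replicate 2. In day 3 replicate 1 the count was 146 (6.22%, 5.28 to 7.28), and in day 3 replicate 2 it was 179 (7.63%, 6.59 to 8.78). The days overlapped, with both day 3 libraries between the day 0 libraries. The mean share was 7.16% ± 2.11 (SD, n = 2) at day 0 and 6.92% ± 0.994 (SD, n = 2) at day 3, a difference of -0.234 percentage points. An exact two-sided permutation test over the 6 relabellings of the 4 libraries gave p = 1, where the smallest possible value is 0.333. The sign rested on single libraries: the difference was 1.26 points without day 0 replicate 2 and 0.469 points without day 3 replicate 1. The peak lists differed in length, from 106382 to 213181 peaks, and the 2 longer lists gave the 2 higher shares. Read depth is unknown for all libraries.

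Scaling by the total of each peak list gave a similar picture. Peaks in the day 3-only transcripts covered 2004.5 ± 174 bases (SD, n = 2) per Mb of peak bases at day 0 and 2178.6 ± 403 (SD, n = 2) at day 3, a ratio of 1.09 (exact permutation p = 0.667, two-sided). The day 0-only transcripts, by comparison, went from 7640.5 ± 365 (SD, n = 2) to 6037.7 ± 951 (SD, n = 2), a ratio of 0.790 (exact permutation p = 0.333, two-sided, the smallest possible). The difference between the 2 ratios was not tested.

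Longer transcripts held a peak more often, and at each length class the day 3-only transcripts stood below the day 3 transcripts that overlapped a day 0 row. Under 500 bp, the mean share was 4.43% ± 1.21 (SD, n = 2) at day 0 and 4.13% ± 0.181 (SD, n = 2) at day 3, against 7.76% and 6.83% of the overlapping transcripts. At 5000 bp or more, a peak was held by 33.7% and 49.5% at day 0 and by 40.6% and 44.6% at day 3. The overlapping transcripts of that length stood at 54.9% and 68.3%, then 54.3% and 65.7%. The order was the same in all 4 libraries and in each of the 4 length classes, but the intervals overlapped in all 4 libraries from 500 to under 1000 bp and in day 3 replicate 1 under 500 bp. No test was made of this difference, and the classes also differed in FPKM. It was not particular to the day 3-only class. The day 0-only transcripts also stood below the overlapping ones, except from 500 to under 1000 bp in replicate 2 of each day. Their mean shares under 500 bp were 5.08% at day 0 and 4.03% at day 3. At 5000 bp or more they stood at 31.9% and 45.8% at day 0, then 25.7% and 40.3% at day 3. The 101 longest members made up 73.3% of all member bases and held 38.1% to 41.1% of the member peaks of a library.

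**Figure D2:**
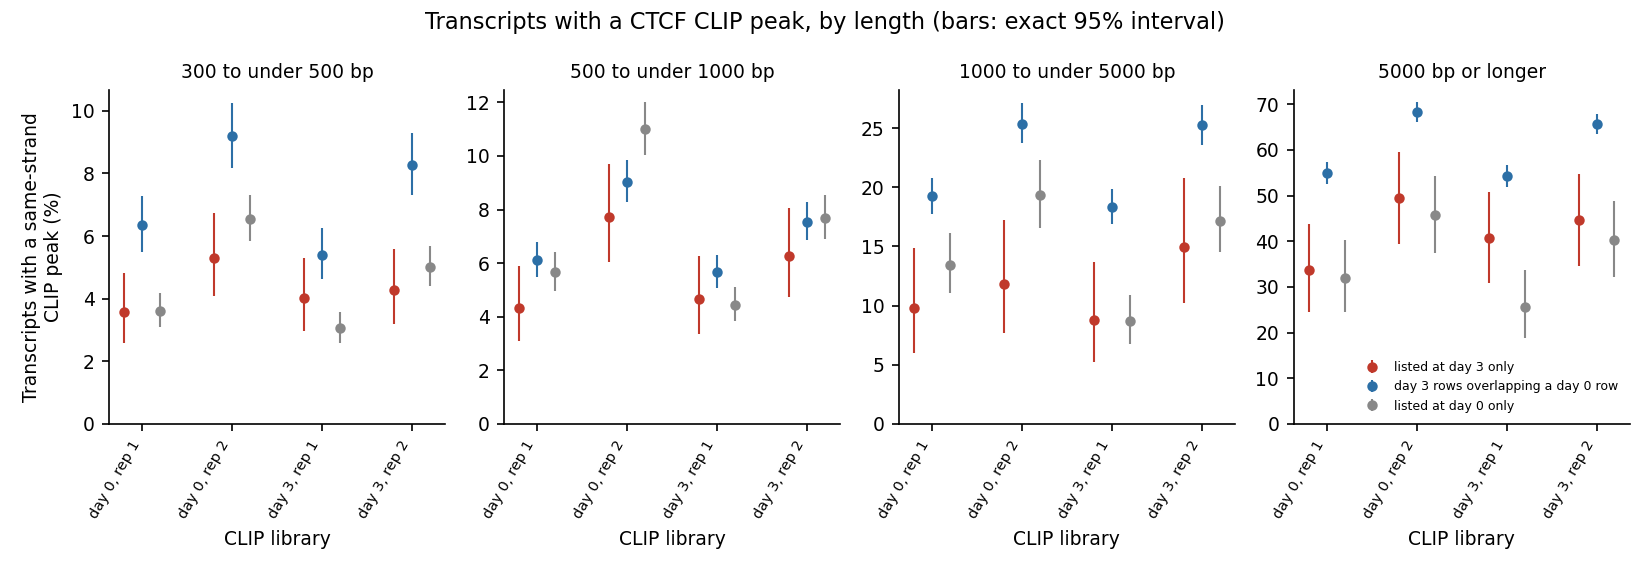
Share of transcripts with a same-strand CLIP peak (%) in each of the 4 CLIP libraries, by length class (1 panel each, with separate axes from 0) and day of listing; bars are exact 95% intervals. Day 3-only transcripts (red) stand below the day 3 transcripts that overlap a day 0 row (blue) in every panel, and reach 33.7% to 49.5% at 5000 bp or longer.

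The share with a peak also differed with the distance from day 0 RNA. A peak in at least 1 of the 4 libraries was present in 165 of the 545 transcripts within 1 kb of a day 0 row on their strand (30.3%, 95% interval 26.4 to 34.3). The share was 22.4% (19.4 to 25.6) of 724 from over 1 to 10 kb away, 8.09% (6.36 to 10.1) of 865 from over 10 to 100 kb, and 5.16% (2.61 to 9.05) of 213 beyond 100 kb. Among transcripts under 1000 bp the shares were 28.4%, 17.4%, 3.60% and 1.73% in the same order. In this length range the share fell from near to far up to 100 kb in each of the 4 libraries. Among those of 1000 bp or longer the shares were 52.4%, 54.1%, 37.4% and 20%, with no fall between the nearest classes. The share also differed with the other strand. Of the transcripts under 1000 bp that faced a day 0 row on the other strand, 3.76% of 1037 held a peak in any library, against 23.9% of the 1015 that faced none. For those of 1000 bp or longer the values were 37.0% of 165 and 50% of 130. These are shares of transcripts in single libraries or their union, with no test.

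**Figure D3:**
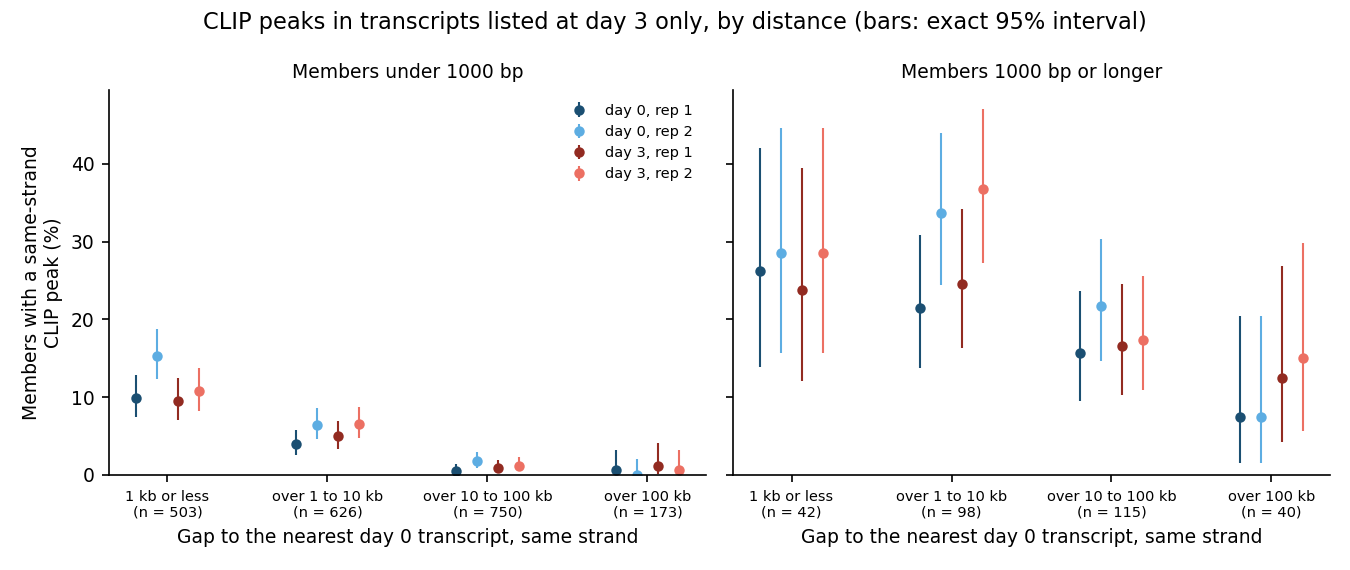
Share of day 3-only transcripts with a same-strand CLIP peak (%) by the gap to the nearest day 0 transcript on their strand, for transcripts under 1000 bp (left) and of 1000 bp or longer (right), with 1 point per CLIP library and exact 95% intervals. Under 1000 bp all 4 libraries go from 9.54% to 15.3% within 1 kb down to 1.73% or less beyond 10 kb.

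No peak in any of the 4 libraries was the case for 1939 transcripts (82.6%), close to 82.0% of the day 0-only and above 69.9% of the overlapping transcripts. The other 408 had at least 1. A day 0 library had a peak in 277 of them and a day 3 library in 267, with 136 in both counts. Peaks in all 4 libraries were present in 26 (1.11%), whose median length was 14469 bp, against 0.763% of the day 0-only and 7.51% of the overlapping transcripts. Few transcripts held a peak in both replicates of a day: 59 (2.51%) in both day 0 libraries and 58 (2.47%) in both day 3 libraries. The shares were 2.86% and 1.63% of the day 0-only transcripts, and 11.9% and 10.8% of the overlapping ones. Pairs of libraries from different days shared 48 to 79 members.

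Across the day 3 list, the change in CLIP peak bases from day 0 to day 3 was tested with limma for the 11335 rows with peaks in at least 2 of the 4 libraries, 158 of which were members. The test used log2 of peak bases per Mb of peak bases of the library, plus 1, which understates the change of rows with few bases. No row passed an adjusted p of 0.05, among the members or in the whole list (0% called). The smallest adjusted p by limma was 0.219, for members and list alike. Without adjustment, 27 members (17.1%) and 925 of all rows (8.16%) had a limma p under 0.05. The rows were kept for having peaks and were not matched in length, so these shares are not compared. The median log2 change was 0.03 over the 158 members and 0.01 over all rows, and 81 members were higher and 77 lower. The fit was repeated with 1 library left out at a time: day 0 replicates 1 and 2, then day 3 replicates 1 and 2. The members' median was then -0.44, -0.33, 0.64 and 0.90, against -0.11, -0.067, 0.18 and 0.075 over all rows. Each of these fits took the rows with peaks in at least 2 of the libraries kept, so 128, 97, 121 and 108 members were tested. That filter can itself move the median toward the day left with 1 library, so nothing is read from these medians. With a pseudocount of 0.1 in place of 1, limma called 6 members and 273 rows. With a pseudocount of 10 it called none, and 9 of the 158 members and 806 of the 11335 rows had an unadjusted limma p under 0.05.

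A peak in both day 3 libraries and neither day 0 library was found for 10 members, which is 0.426% of all 2347, beside 0.807% of the 12771 day 3 transcripts that overlapped a day 0 row. The reverse, both day 0 libraries and neither day 3 library, was found for 12 members (0.511%), beside 1.13% of the overlapping transcripts. Among the rows with peaks in at least 2 libraries the order turned: the shares of the 158 members were 6.33% and 7.59%, and those of all 11335 rows were 2.4% and 2.83%. That filter kept rows for having peaks, and the rows were not matched in length, so nothing is read from these shares. Of the 10 members with peaks in both day 3 libraries and neither day 0 library, a 1268 bp transcript at chr2:130706602-130707869 on the plus strand (FPKM 13.65) held 2 peaks in each day 3 library, covering 102 and 66.2 bases per kb. At chr6:39338719-39340017 on the minus strand (1299 bp, FPKM 5.21) there was 1 peak in each, covering 32.3 and 45.4 bases per kb. At chr6:31040739-31041766 on the minus strand (1028 bp, FPKM 8.33), inside the locus of 6 described above, the day 3 libraries held 3 peaks and 1 peak, covering 133 and 48.6 bases per kb. These transcripts were named for their day 3 peaks, and the pattern fixes the direction, so no change is read and no test is given for them. Fitted changes appear in the last section only to show how they depend on the pseudocount.

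Among the 12 with the reverse pattern, 2 were on X, which held 70 of all 2347 members (2.98%). These 2 were picked after their values were seen, and nothing about X is read from them. A 349 bp transcript at chrX:160487834-160488182 on the minus strand (FPKM 11.39) held 2 peaks in each day 0 library and none at day 3. A 27202 bp transcript at chrX:71099117-71126318 on the minus strand (FPKM 2.87) held 1 and 3 peaks at day 0 and none at day 3. For these, RNA was listed at day 3 and CLIP peaks at day 0.

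The densest CLIP signal in transcripts of at least 1000 bp lay in a pair of neighbours on the plus strand of chromosome 7, and it was present at both days. The first, at chr7:3217847-3219910 (2064 bp, FPKM 60.25), held 16 and 29 peaks at day 0 against 14 and 15 at day 3. Peaks covered 470 and 602 bases per kb at day 0, then 358 and 464 at day 3. The second, at chr7:3220021-3221346 (1326 bp, FPKM 30.78), starts after a gap of 110 bp with 8 and 10 peaks at day 0, then 11 and 9 at day 3, covering 339 and 316, then 281 and 343 bases per kb.

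The days did not separate at either of them. Both were named for their day 3 peak bases, so their changes are a description: the fitted log2 changes were -0.21 ± 0.51 (SE) and 0.09 ± 0.58 (SE), and the sign of the second changed with the scaling and with the library left out. The day 0 list resumes on this strand at chr7:3221983-3222703, a 721 bp row with an FPKM of 5.26 and 2, 3, 0 and 2 CLIP peaks in the 4 libraries. Thus CLIP peaks were listed over both transcripts in undifferentiated cells although the day 0 RNA list had no row there.

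Below this pair, coverage was lower by more than a factor of 2. A minus-strand transcript at chr17:33959673-33961523 (1851 bp, FPKM 11.57) had 1 and 2 peaks at day 0, then 6 and 2 at day 3. Its fitted log2 change of 1.47 ± 0.96 (SE) was 0.37 without day 3 replicate 1 and 2.58 without day 3 replicate 2. This transcript, too, was named for its day 3 peak bases, so its change is a description. A plus-strand transcript at chr5:109098330-109113571 (15242 bp, FPKM 7.26) had 1 and 5 peaks at day 0, then 2 and 7 at day 3, with a CTCF ChIP peak within 1000 bp of its start in all 3 libraries. In this transcript replicate 2 was above replicate 1 at both days, as it was in the length of the peak lists.

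**Figure D4:**
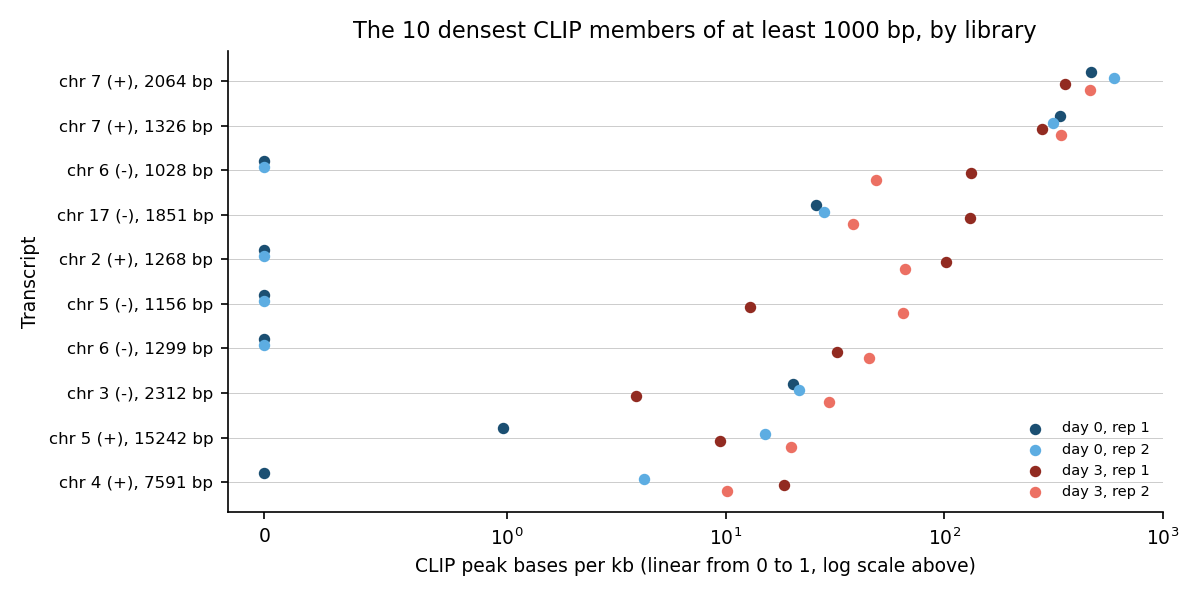
CLIP peak bases per kb (linear from 0 to 1, log scale above) in each of the 4 CLIP libraries for the 10 day 3-only transcripts of at least 1000 bp with the most peak bases per kb at day 3, labelled by chromosome, strand and length. The pair on chromosome 7 stands at 281 to 602 bases per kb with the days mixed, while 4 of the others are at 0 in both day 0 libraries. The choice asked for a peak in both day 3 libraries and set no condition at day 0. Only day 0 values could therefore be 0, and no change is read from this.

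The longest transcripts carried low FPKM and scattered peaks. The longest lay on the minus strand of X (chrX:40177535-40782180, 604646 bp, FPKM 1.01) with 2 and 1 peaks at day 0, then 1 and 0 at day 3. At chr1:125522416-125942570 on the minus strand (420155 bp, FPKM 1.90), peaks were listed at day 3 only, with 2 and 1. At chr18:40418015-40690757 on the plus strand (272743 bp, FPKM 1.90), there were 3 and 2 peaks at day 0, then 10 and 9 at day 3. The days did not overlap there, and the log2 change was 2.17 ± 0.67 (SE; limma adjusted p = 0.513).

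Other long transcripts went either way or were mixed. At chr5:142590319-142691540 on the plus strand (101222 bp, FPKM 1.21), 2 peaks and 1 peak were listed at day 0 and none at day 3. At chr2:108932454-109121021 on the minus strand (188568 bp, FPKM 1.46), the counts were 10 and 17 at day 0 and 2 and 12 at day 3. At chr2:63809564-63936144 on the minus strand (126581 bp, FPKM 1.82) they were 3 and 7, then 14 and 8. Of the 101 transcripts of 5000 bp or more, 75 held a peak in at least 1 library and 17 in all 4. Of the same 101, 45 overlapped a day 0 row on the other strand, and 73 carried the identifier form TCONS, which 8.99% of all members had.

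CTCF on chromatin was found near the start of a minority, at similar shares on both days. The start is the 5' end of the row by its strand. A ChIP peak lay within 1000 bp of it for 381 transcripts (16.2%, 95% interval 14.8 to 17.8) in day 0 replicate 1, for 711 (30.3%, 28.4 to 32.2) in day 0 replicate 2 and for 420 (17.9%, 16.4 to 19.5) at day 3. The day 3 value lay between the day 0 replicates, which differed with the length of their lists (45377 and 76745 peaks, against 41264 at day 3). With 1 library at day 3, no test was made. A peak was present in all 3 libraries at 313 starts (13.3%), at day 3 and in neither day 0 library at 17 (0.724%), and in both day 0 libraries but not at day 3 at 36 (1.53%). No library had one at 1587 (67.6%).

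The other classes had much the same shares. The day 3 transcripts that overlapped a day 0 row stood at 17.4%, 32.2% and 19.9% in the same order of libraries, and the day 0-only transcripts at 15.6%, 28.2% and 16.9%. Directly over the start, the day 3-only values were 8.90%, 18.1% and 9.88%, against 10.4%, 21.8% and 12.3% of the overlapping transcripts. The difference was not tested. For starts of members of 5000 bp or more the shares were 10.9%, 22.8% and 12.9%, with intervals that overlapped those of the shorter classes.

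**Figure D5:**
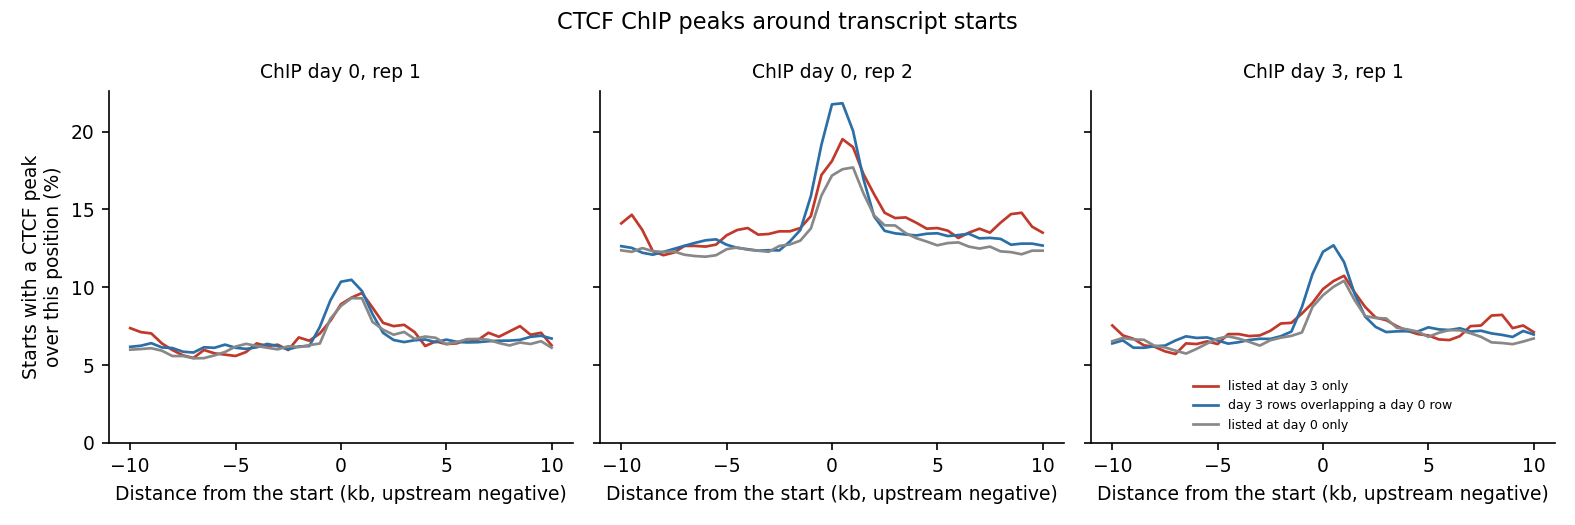
Share of transcript starts with a CTCF ChIP peak over each position (%), from 10 kb upstream to 10 kb downstream, in the 3 ChIP libraries (1 panel each). Day 3-only transcripts (red) reach 8.90%, 18.1% and 9.88% at the start, below the day 3 transcripts that overlap a day 0 row (blue) in each library. The order is not the same over the whole range. At 2000 bp upstream red stands at 6.77%, 13.6% and 7.67%, against 6.19%, 12.9% and 6.85% for blue. At 2000 bp downstream the values are 7.71%, 16.0% and 8.73%, against 7.07%, 14.6% and 8.11%.

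Named by FPKM among the starts with a peak in all 3 ChIP libraries, the first was a 595 bp transcript at chr7:19989015-19989609 on the minus strand (FPKM 53.08), wholly inside a day 0 row on the other strand. On chromosome 3, a minus-strand transcript at chr3:87572745-87573137 (393 bp, FPKM 44.59) and a plus-strand transcript at chr3:87572750-87573123 (374 bp, FPKM 36.00) covered the same place on both strands, and neither faced a day 0 row. A 6177 bp transcript at chr2:29912898-29919074 on the plus strand (FPKM 40.91) ended 73 bp before a day 0 row. Of the 10 highest, 9 were under 1 kb, 4 overlapped a day 0 row on the other strand and 3 held a CLIP peak.

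The 70 transcripts on X had a median length of 460.5 bp and a median FPKM of 9.205 (range 1 to 49.73), and 9 of them held a CLIP peak in any library. A ChIP peak lay within 1000 bp of the start at 8.57% and 28.6% in the day 0 libraries and 10.0% at day 3, against 16.5%, 30.3% and 18.1% on autosomes. This was not tested, and 70 starts limit its precision. Shares on X were not measured for the other classes, so the difference is not read as a trait of the members on X. The highest FPKM on X, 49.73, was that of a 1018 bp transcript at chrX:166426723-166427740 on the minus strand, which overlapped a day 0 row on the other strand with an FPKM of 3354.85. It held 0 and 1 CLIP peaks at day 0 and 2 and 0 at day 3. A 14293 bp transcript at chrX:7581326-7595618 on the minus strand (FPKM 1.39) held 2 peaks in day 3 replicate 1 and none in the other libraries, and all 3 ChIP libraries had a peak at its start.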

How the data were processed

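The submitters' processing notes name build mm9 and, with no role or order, Cufflinks 2.1.1, TopHat2 2.0.8, Novoalign 3.00.03, Trim Galore 0.3.3, bedtools 2.17.0, SAMtools 0.1.18 and cutadapt 1.0. No peak caller is named. In the authors' deposited RNA-seq lists, the value per transcript was read as FPKM because Cufflinks gives that unit, though no header says so. The CLIP and ChIP lists deposited by the authors hold a score per peak, used only to rank peaks within a list.

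Sample titles gave groups and replicate numbers. P-values measure the spread between these libraries, which may be technical. Overlaps of at least 1 bp on the same strand were found with bedtools 2.31.1 over whole rows, introns included, on chromosomes 1 to 19 and X. The limma 3.58.1 fit (R 4.3.3) had day as its only term and Benjamini-Hochberg adjustment. It was tried on simulated, normally distributed values. Those lack the rows without peak bases in a library that the real lists hold, so the trial does not show how the fit performs on these lists. Python 3.11.15, with pandas 2.3.3, matplotlib 3.10.9, NumPy 2.4.6 and SciPy 1.17.1, did the rest. The rule for named transcripts took the 15 of highest FPKM, the 10 of at least 1000 bp with most CLIP bases per kb and a peak in both day 3 libraries, the 10 of highest FPKM with ChIP peaks at the start in all 3 libraries, and the 10 longest; some are printed. X transcripts, loci and those with peaks at 1 day were chosen after their values were seen. The members and lists were chosen with earlier results of these data known. Gene lists and marker genes need mm9 names and were not used here.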

Additional observations from a re-analysis of the deposited data

How the results depend on the processing

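The number of members was 1145 when rows facing a day 0 row on the other strand were left out and 295 with a minimum of 1000 bp; the other minimums tried gave 1802 to 2930. Limma called 273 rows and 6 members with a pseudocount of 0.1, and none with a pseudocount of 10. The fitted log2 changes at chr2:130706602-130707869 and chr6:39338719-39340017, both without peaks at day 0, were 7.53 and 6.47 with 0.1, 4.28 and 3.29 with 1, and 1.53 and 0.91 with 10, and are no measure of size. The difference in CLIP share changed sign with lists of equal number of peaks (0.639 points), an FPKM minimum of 5 (0.0499) and a length minimum of 1000 bp (1.02), and ran from -1.73 to 1.26 with 1 library left out. The log2 change at chr7:3220021-3221346 was -0.078 without scaling, -0.13 with the 50% of peaks of highest score, and with 1 library left out ran from -0.33 (without day 0 replicate 2) to 0.52, with -0.024 without day 3 replicate 1. At chr3:128917846-128920157 it was -0.60 as fitted, 0.40 with the 50% of peaks of highest score, and -1.57 to 0.37 with 1 library left out, the latter without day 3 replicate 1. For each of these the cause was not tested. The transcripts at chr7:3220021-3221346 and chr3:128917846-128920157 were named for their day 3 peak bases, so their changes are a description. ChIP shares (day 0 replicates 1 and 2, then day 3) were 8.90%, 18.1% and 9.88% over the start, 36.3%, 58.4% and 37.9% within 5000 bp, and 12.0%, 18.7% and 11.2% with the 50% of peaks of highest score; the day 0 mean of 23.3% became 30.3% or 16.2% with a replicate left out. With a replicate block, limma called 0 rows (smallest adjusted p 0.512; 845 unadjusted); deviations of same-numbered libraries correlated at r = 0.0239 over 11335 rows, so the numbers were not taken as pairs.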
